A study of Mus musculus with 16 samples.

Results

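Alpha cells are the endocrine cells of the pancreatic islet that make glucagon, the hormone that raises blood glucose. The cells described here were those that the cell annotation deposited with the human single-cell matrix names as alpha cells, matched to the matrix by the name of each cell's sequencing run. They were 437 of 1081 cells (40.4%), from 6 donors whose labelled disease state was normal and for whom no treatment is named. The annotation lists 443 alpha cells of such donors, and 6 of them were not in the matrix. The 14 deposited types are the other study's own calls, inferred from the expression of these cells. A difference in expression between alpha cells and another type is therefore given as a description, with no test.

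The single-cell data come from another study of human islets, which the submitters of a series on P2ry1 and ivermectin in a mouse β-cell line quantified anew. The mouse libraries enter no result here. Donor 1 gave 28 alpha cells, donor 2 gave 113, donor 3 gave 92, donor 4 gave 26, donor 5 gave 134 and donor 6 gave 44, and donors are the replicates throughout. Alpha cells made up between 11.1% of a donor's cells in the matrix (donor 4) and 66.7% (donor 5), shares that the sorting and picking of cells can set.

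Glucagon is cut from proglucagon, the product of GCG, by the prohormone convertase PCSK2, and is released when blood glucose is low or amino acids are high. The transcription factor IRX2 is known from alpha cells, whereas PDX1, NKX6-1 and MAFA are known for beta cells, which make insulin. Beta cells, delta cells (somatostatin) and gamma cells (pancreatic polypeptide) are neighbours of alpha cells in the islet and signal to them through receptors and purines.

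Total counts per alpha cell had a median of 462289 and ranged from 17315 to 3588909, and a median of 6196 genes had at least 1 count. The donors fell into separate ranges on this measure. The median alpha cell had 4314 to 5582 genes in donors 1 to 3 and 7526.5 to 8489 genes in donors 4 to 6, although median totals were higher in the first 3 donors (504857.5 to 1225386 counts) than in the other 3 (164177 to 239794). Levels below are CPM (the summed counts scaled so that every sum has the same total) of a donor's cells of 1 type, and the difference between types is the mean over donors of the within-donor difference of log2(CPM + 5), with its SD. Only donors with at least 10 cells of both types enter a difference, which gave 6 donors for beta, 4 for ductal, 3 for delta, 3 for gamma and 2 for acinar cells. A gene was called higher or lower when the mean difference was at least 2 on the log2 scale (4-fold) and its sign was the same in every donor, among genes with a mean of 10 CPM or more in either type. In bulk sums of this kind fewer cells with a transcript and less transcript per cell cannot be told apart, so shares of cells are given where they matter. Reads without molecular identifiers are not independent molecules, so intervals on shares cover counting error only.

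**Figure D1:**
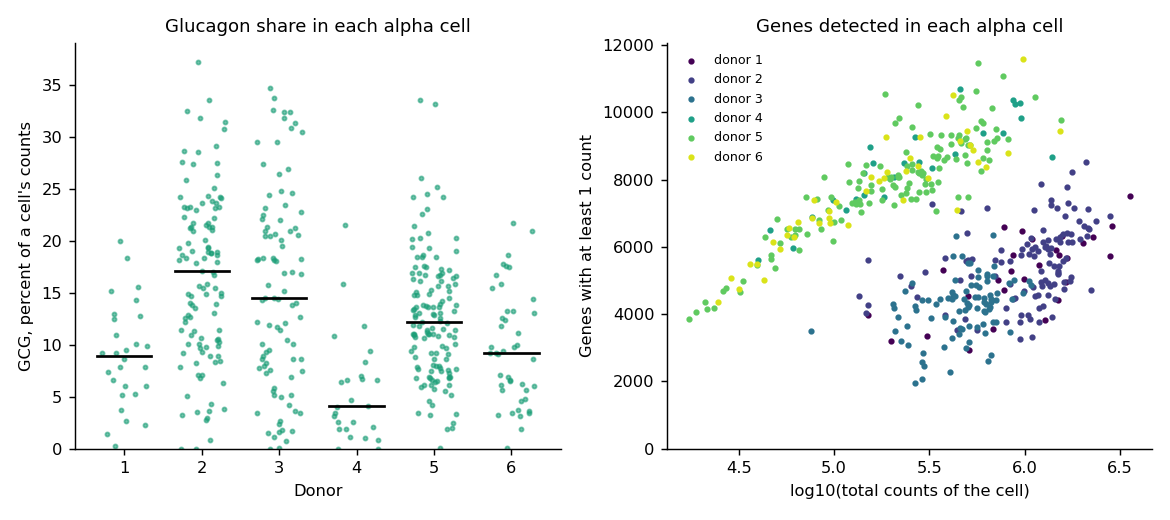
Left, the share of each alpha cell's counts that came from GCG, 1 point per cell by donor, with the donor's median as a bar. Right, genes with at least 1 count against total counts (log10) for each alpha cell, coloured by donor; the median cell of donors 4 to 6 had more genes at a lower total than that of donors 1 to 3, while single cells of the 2 sets of donors overlap.

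The label was checked first against the alpha markers, and these cells held all 6 of them. GCG took 9.14% of alpha-cell counts in donor 1, 17.3% in donor 2, 15.6% in donor 3, 6.26% in donor 4, 12.8% in donor 5 and 8.96% in donor 6. Single alpha cells spread much more widely than donors did, from 0.000646% to 37.2% of a cell's counts. GCG was at 1000 CPM or more in 430 of 437 alpha cells (98.4%, exact 95% interval 96.7 to 99.4%). The 7 alpha cells under that level came from 4 donors and reached at most 918 CPM of GCG; they held 4692 to 90827 CPM of TTR, 3 of the 7 had counts of IRX2 and 1 had PPY over 1000 CPM. TTR, which encodes transthyretin, a carrier of thyroid hormone and retinol-binding protein, was at 1000 CPM or more in all 437, but also in 72 of 74 gamma cells (97.3%), 143 of 164 beta cells (87.2%) and 41 of 59 delta cells (69.5%), so this level does not set alpha cells apart.

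The transcription factor IRX2 and the enzyme LOXL4 were read in most alpha cells. IRX2 had counts in 385 alpha cells (88.1%), against 9 of 164 beta cells (5.49%), 8 of 135 ductal cells (5.93%) and 12 of 74 gamma cells (16.2%), 5 of which had 5 or more counts. LOXL4, a lysyl oxidase of the extracellular matrix, had counts in 386 alpha cells (88.3%) and in 38 beta cells (23.2%) and 45 ductal cells (33.3%), with 5 or more counts in 24 of these ductal cells and in 0 beta cells. The share of alpha cells with IRX2 was 71.4, 80.5 and 81.5% in donors 1 to 3 and 92.3, 98.5 and 97.7% in donors 4 to 6, the donors in which more genes were detected at lower totals; the part of detection in this was not tested. Summed over the 6 alpha markers, donors held 125800 to 230810 CPM.

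Markers of other cells were low. Summed levels in alpha cells ranged over donors from 93.3 to 385 CPM for 6 beta markers, 14.9 to 952 CPM for 5 delta markers, 111 to 243 CPM for 5 gamma markers, 47.7 to 333 CPM for 3 epsilon markers, 1.88 to 637 CPM for 7 acinar markers and 4.58 to 19.7 CPM for 5 ductal markers. The acinar value of 637 CPM was that of donor 4, 34.2% of whose cells were acinar, and the delta value of 952 CPM was that of donor 3. For 5 stellate, 5 endothelial and 4 mast-cell markers no donor was above 9.72 CPM, and 4 immune markers ranged from 0.200 to 79.6 CPM. CD163 was at 0 in alpha cells, but CD163 and PTPRC were also at 0 in the 1 cell of the deposited MHC class II type. What part these reads have in the differences below was not tested.

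Against beta cells, alpha cells were higher for 200 of 9297 genes (2.15%) and lower for 91 (0.979%). With the donors split by genes detected, 216 genes were higher and 116 lower in donors 1 to 3, and 233 higher and 103 lower in donors 4 to 6. Of the 200 higher genes, 173 and 171 were called in these sets. Both sets are parts of the same 6 donors, so this is no separate check. The rule of 1 sign in every donor is also easier to meet with 3 donors than with 6. Against delta cells 193 of 9452 genes were higher (2.04%) and 93 lower (0.984%), and without donor 6 the lower count was 152. Against gamma cells 91 of 9658 were higher (0.942%) and 114 lower (1.18%), and without donor 4 the higher count was 138. Ductal cells gave 419 higher of 10268 (4.08%) and 652 lower (6.35%), and acinar cells gave 589 higher of 9548 (6.17%) and 489 lower (5.12%). Gamma cells thus had the fewest genes below alpha cells of the 5 types, but the number of donors differed between the comparisons and the difference between these counts was not tested.

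Of 2596 genes at 50 CPM or more in alpha cells, 135 were above every one of the 5 other types in every donor, and 18 of them by 4-fold or more. Those with the greatest margin over the nearest other type included, in order, GCG, FAP, LOXL4, CRH, PLCE1, IRX2, DPP4, CRYBA2, TMEM236, POPDC3 and EGFEM1P. FAP (fibroblast activation protein) and DPP4 are related serine peptidases, and the genes of both lie beside GCG in the human genome. FAP was at 163, 342, 370, 88.1, 249 and 229 CPM in the alpha cells of donors 1 to 6, and at no more than 0.628 CPM in the beta cells of any donor. DPP4, which inactivates the incretin GLP-1, was at 120, 101, 182, 45.8, 37.8 and 44.9 CPM in alpha cells and at no more than 1.14 CPM in beta cells. Both genes were picked for being above every other type in every donor, so their separation from beta cells follows from that choice.

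CRH, the gene of corticotropin-releasing hormone, was at 202, 194, 351, 226, 219 and 281 CPM in alpha cells and at most 1.46 CPM in beta cells, a difference of 5.47 ± 0.35 (SD, n = 6 donors). PLCE1, a phospholipase C, differed by 4.56 ± 0.98. CRYBA2, a crystallin gene, ranged from 237 CPM (donor 1) to 3941 CPM (donor 6) in alpha cells and from 27.3 to 110 CPM in beta cells. The CRYBA2 level in alpha cells thus varied over donors by more than that of FAP or CRH. TMEM236 differed by 4.43 ± 1.25, POPDC3 by 3.47 ± 0.44 and EGFEM1P by 2.78 ± 0.64. Each was higher in 6 of 6 donors, which the rule that picked these genes requires.

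**Figure D2:**
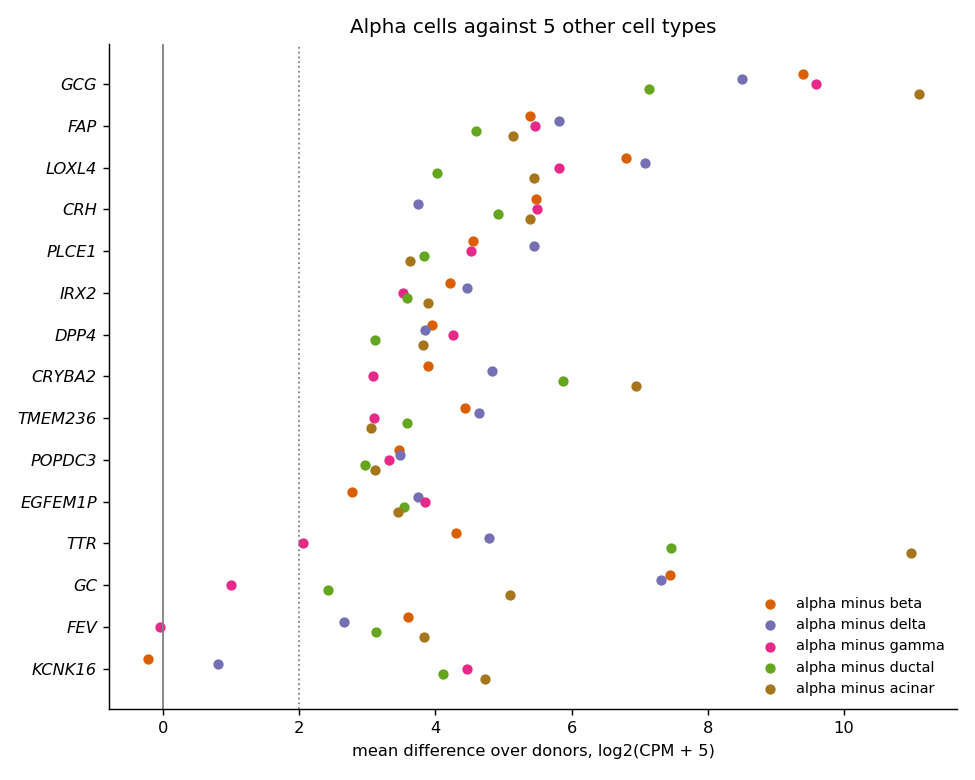
Mean within-donor difference of alpha cells from beta, delta, gamma, ductal and acinar cells on the log2(CPM + 5) scale for 15 genes; the dotted line marks 2. The genes from GCG to EGFEM1P were picked for their margin over every other type. They lie to the right of the dotted line against all 5 types, whereas FEV lies near 0 against gamma cells and KCNK16 near 0 against beta cells.

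Of 28 genes in a list of alpha transcription factors and surface genes, 24 passed the filter on low values against beta cells, 15 were higher and 0 lower, beside 2.15% and 0.979% of all genes, with a median difference of 3.74 against 0.16. The list was drawn up from genes known in alpha cells. Among the transcription factors IRX2 was at 47.6, 75.9, 155, 64.3, 138 and 100.4 CPM in alpha cells of donors 1 to 6 and at most 0.266 CPM in beta cells, a difference of 4.22 ± 0.60. FEV, a factor also known from serotonin neurons, was higher by 3.60 ± 1.56, with alpha-cell levels that ran from 6.48 CPM in donor 1 to 286 CPM in donor 6.

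Several endocrine factors did not separate alpha from beta cells. PAX6 differed by -0.13 ± 0.50 (higher in 2 of 6 donors), NEUROD1 by -0.005 ± 0.39 (5 of 6) and ISL1 by 0.59 ± 0.69 (4 of 6). PAX6 and ISL1 had the same sign under each scaling run, whereas NEUROD1 was at -0.16 with TMM factors and at 0.04 with the mean of per-cell CPM. Within donors 4 to 6, PAX6 was at 0.03. RFX6 was higher in 6 of 6 donors, by 1.35 ± 0.43, under the 4-fold line.

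Among the surface and other genes of that list, TM4SF4 was at 2598 to 6756 CPM in alpha cells, with a difference of 7.04 ± 1.46. The vitamin D-binding protein gene GC ran from 791 to 2152 CPM in alpha cells and reached 7.54 CPM in beta cells, a difference of 7.44 ± 0.52. KCTD12 (4.18 ± 0.89), SMIM24 (4.25 ± 0.74), SPOCK3 (3.28 ± 1.02) and RGS4 (2.85 to 5.55 over donors) were also called. CD36, a fatty acid transporter, was just inside the line at 2.01 ± 1.06; it was 1.95 without donor 1, 1.83 without donor 2 and 1.72 without donor 3, 1.41 with a pseudocount of 10 CPM and 1.10 within donors 4 to 6.

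Gamma cells shared part of this set. Against them 7 genes of the list were higher, among them IRX2, DPP4, FAP, CRYBA2 and PLCE1, and 0 were lower, beside 0.942% and 1.18% of all genes, with a median of 1.06 against -0.03. When donors with at least 5 cells were let in, the call of IRX2 was lost. Its mean difference was then 2.55, but it was not higher in every donor. FEV differed from gamma cells by -0.04 ± 0.60 (higher in alpha cells in 1 of 3 donors) and GC by 0.99 ± 1.17 (3 of 3), which was 0.35 without donor 2. TTR was at 9556, 9854 and 22381 CPM in these gamma cells, and its difference of 2.05 ± 0.54 was 1.81 without donor 2 and 1.996 without donor 3.

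Hormones of the other islet cells were traces in the sums. INS, the insulin gene, was at 164, 135, 78.9, 153, 271 and 363 CPM in alpha cells of donors 1 to 6 and at 63474 to 237640 CPM in beta cells, a difference of -9.60 ± 0.56. The levels did not overlap. Counts of INS were found in 430 of 437 alpha cells (98.4%), and also in 130 of 135 ductal cells (96.3%), a type that should lack the gene, with a median of 68.4 CPM in alpha and 49.8 CPM in ductal cells. At least 1000 CPM of INS was reached by 17 alpha cells (3.89%) and 2 ductal cells (1.48%). In donor 1, 1 cell held 73.4% of the INS counts of alpha cells. SST, the somatostatin gene, was at 22.5, 64.02, 863, 12.7, 14.5 and 29.8 CPM; 1 cell held 65.2% of the SST counts in donor 3. PPY, the pancreatic polypeptide gene, was at 6.71 to 180 CPM, and 1 cell each held 74.4% of its counts in donor 3 and 75.1% in donor 4, so these sums are not levels of the typical alpha cell. GHRL, the ghrelin gene, was at 3.10 CPM or less.

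Alpha cells with a second hormone were few. By share of counts, with no correction for transcript length, GCG led among 5 hormone genes in 432 of 437 alpha cells, INS in 4 and PPY in 1. A level of 1000 CPM was reached by INS in 17 alpha cells, SST in 3 and PPY in 6, and 25 alpha cells (5.72%) had 2 or more hormones at that level. INS at that level was found in 8 alpha cells of donor 5, 5 of donor 6, 2 of donor 2 and 1 each of donors 1 and 3. Among beta cells 7 of 164 (4.27%) held 2 or more hormones at that level, as did 3 of 74 gamma cells (4.05%) and 13 of 59 delta cells (22.0%). The annotation has a separate class of co-expression cells, in which 23 of 25 did so, and 13 of its 29 unclassified endocrine cells held 1000 CPM of GCG or more. Doublets were not called here, and whether these cells are doublets was not tested. Leaving out the alpha cells with low GCG or another hormone gave 194 genes higher than in beta cells and 91 lower.

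**Figure D3:**
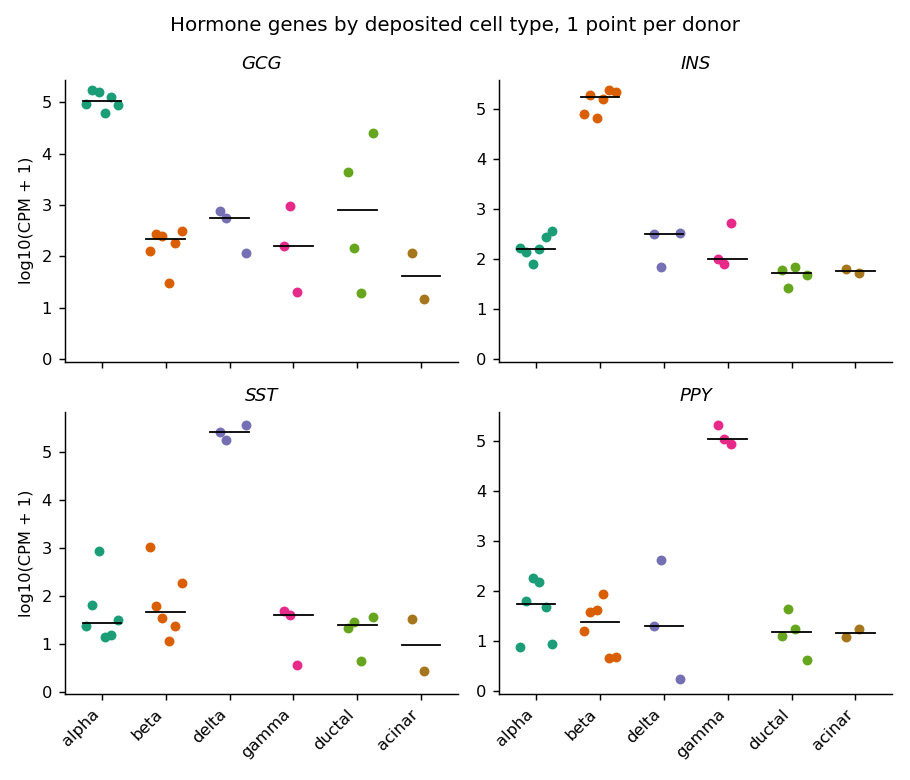
Levels of GCG, INS, SST and PPY as log10(CPM + 1) of summed counts, 1 point per donor and type, with the median over donors as a bar. Alpha cells hold GCG at 62608 to 173018 CPM and the other 3 hormones at 863 CPM or less, and GCG in ductal cells reaches 24961 CPM in donor 6.

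GCG in ductal-labelled cells varied over donors, at 4328, 147, 18.2 and 24961 CPM in donors 2, 3, 4 and 6. In all, 3 ductal-labelled cells from 2 donors held 62857 to 177550 CPM of GCG beside 731 to 1628 CPM of KRT19, the ductal keratin. Without them the GCG level was 194 CPM in donor 2 and 97.1 CPM in donor 6. The difference of GCG between alpha and ductal cells went from 7.14 to 10.23, and that of TTR from 7.47 to 10.15, when these cells were left out.

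The beta-cell genes were mostly low in alpha cells. Of 20 beta identity genes, 19 passed the filter, 14 were lower than in beta cells and 0 higher, beside 0.979% and 2.15% of all genes, with a median of -3.81 against 0.16. Ranked by the alpha minus beta difference alone, the greatest margins below beta cells were those of INS, IAPP, RBP4, HADH, PDX1 and SCD5. IAPP, which encodes amylin, was at 1.71 to 47.7 CPM in alpha cells and 2006 to 11864 CPM in beta cells. Over all alpha cells the median was 0.495 CPM of IAPP, the upper quartile 4.41 CPM and the highest cell 579 CPM. The sum of 47.7 CPM is thus not the level of the typical alpha cell. HADH, a mitochondrial fatty acid oxidation enzyme, was at 1.60 to 38.0 CPM in alpha and 530 to 807 CPM in beta cells, a difference of -5.30 ± 1.03. RBP4, the retinol-binding protein, differed by -7.64 ± 2.03 and SCD5, a desaturase, by -4.81 ± 0.64.

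Among the beta transcription factors PDX1 was at 0, 0.6246, 0.0427, 1.302, 0.597 and 0.855 CPM in alpha cells of donors 1 to 6 and at 55.1, 201, 23.9, 255, 402 and 614 CPM in beta cells. MAFA was at 0.684 CPM or less in alpha cells and at 11.5 to 161 CPM in beta cells. NKX6-1 was not as low, at 6.11 to 21.6 CPM in alpha cells and 21.8 to 145 CPM in beta cells, a difference of -2.20 ± 0.55 that was -1.82 within donors 1 to 3 and -1.94 with a pseudocount of 10 CPM. G6PC2, which encodes an islet glucose-6-phosphatase subunit, was at 284 to 854 CPM in alpha cells and lower than in beta cells in 6 of 6 donors by 1.44, without reaching 4-fold, and its difference from delta cells was 5.16 ± 0.35.

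The enzymes that cut prohormones differed in opposite directions. PCSK2 was at 1100, 3180, 1842, 1486, 2501 and 2539 CPM in alpha cells and at 167 to 353 CPM in beta cells, a difference of 2.86 ± 0.82. PCSK1, the convertase that cuts proinsulin and releases GLP-1 from proglucagon, was at 4.01 CPM (donor 4) to 18.9 CPM (donor 5) in alpha cells and at 136 to 496 CPM in beta cells, a difference of -4.23 ± 1.08. Alpha and beta cells did not overlap for either enzyme. PCSK1 was also lower than in gamma cells, by 3.07 on the log2 scale (SD 0.84, n = 3 donors).

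Of 13 granule and processing genes, 3 were higher than in beta cells (PCSK2, CHGB and VGF), 2 lower (PCSK1 and IAPP) and 8 neither, beside 2.15% and 0.979% of all genes, with a median of 0.70 against 0.16. The granins CHGB and VGF differed by 2.76 ± 1.11 and 3.09 ± 0.78. CHGA, chromogranin A, was higher in 6 of 6 donors by 1.33 ± 1.12, and CPE, carboxypeptidase E, in 6 of 6 by 1.03 ± 0.53, both under the line. PCSK1N, an inhibitor of PCSK1, ranged from 120 CPM in donor 3 to 3400 CPM in donor 6 within alpha cells and differed from beta cells by 0.27 ± 0.54, so donors differed more than the types did.

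**Figure D4:**
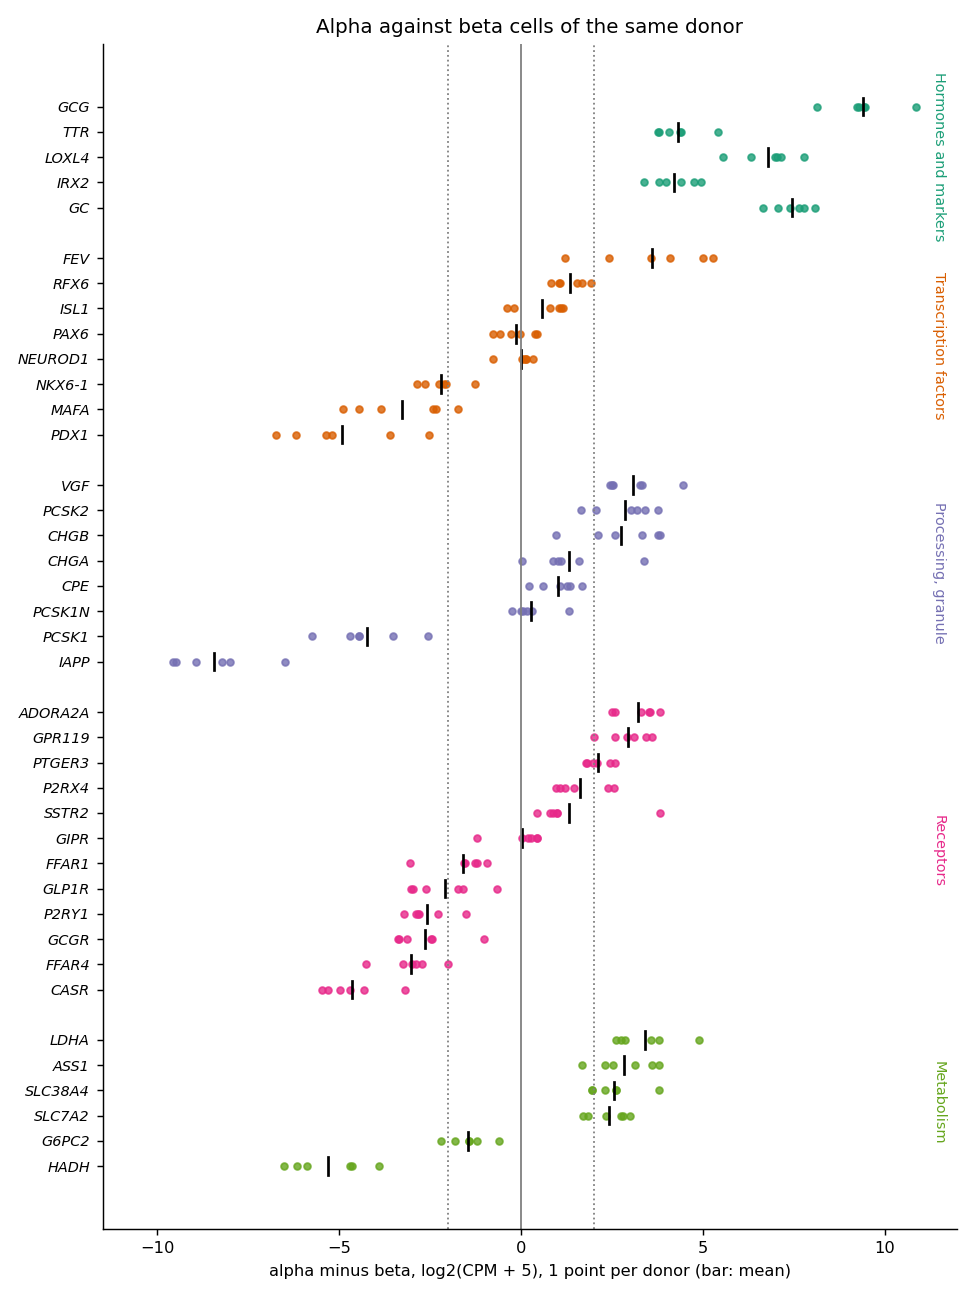
Within-donor difference of alpha from beta cells on the log2(CPM + 5) scale, 1 point per donor, grouped by role, with the mean as a bar and dotted lines at -2 and 2. PCSK2 and PCSK1 lie on opposite sides, as do ADORA2A and P2RY1, whereas PAX6, NEUROD1 and GIPR lie about 0.

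P2RY1, the purinergic receptor gene that the mouse part of the series is about, was nearly unread in alpha cells. It encodes a receptor for ADP that couples to Gq. The summed P2RY1 counts in alpha cells were 0, 4, 1, 1, 0 and 0 in donors 1 to 6, and in the donors with no count 3 counts would have been 0.0853, 0.0779 and 0.256 CPM. In beta cells of the same donors P2RY1 was at 30.1, 41.5, 9.42, 32.5, 30.3 and 19.5 CPM. The types did not overlap, and the difference was -2.59 ± 0.60, or -1.83 with a pseudocount of 10 CPM, which ends the call. Counts were found in 6 of 437 alpha cells (1.37%), none with 5 or more, against 64 of 164 beta cells (39.0%) and 22 of 135 ductal cells (16.3%), all pooled over donors, at median totals of 462289 counts in alpha and 547765 in beta cells. By donor the share was 0 to 3.85% of alpha cells and 16.7, 26.8, 8.57, 68.8, 67.6 and 30.0% of beta cells in donors 1 to 6, so the ranges did not overlap. Delta cells held P2RY1 at 21.0 CPM in donor 2, 102 in donor 3 and 3.15 in donor 6; the alpha minus delta difference of -2.50 ± 1.86 was -1.54 without donor 3. Gamma cells of 3 donors had 0 counts of P2RY1.

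Of 26 purinergic genes, 4 passed the filter against beta cells, 1 was higher and 2 lower, beside 2.15% and 0.979% of all genes, with a median of -0.49 against 0.16. ADORA2A, the adenosine receptor that couples to Gs, was at 24.8, 66.8, 23.5, 47.9, 65.6 and 52.0 CPM in alpha cells and at most 1.06 CPM in beta cells, a difference of 3.21 ± 0.55. ADORA2A was read in 258 alpha cells (59.0%), 10 beta cells (6.10%) and 12 ductal cells (8.89%), and it was also called higher than in delta, gamma, ductal and acinar cells. P2RX4, an ATP-gated channel that ivermectin is known to act on, was at 244, 112, 48.6, 94.9, 81.5 and 111 CPM in alpha cells and at 17.0 to 50.9 CPM in beta cells. P2RX4 was higher in 6 of 6 donors, by 1.61 ± 0.69 and so under the 4-fold line, and differed from ductal cells by -0.24 ± 0.36. ENTPD3, an enzyme that breaks down extracellular ATP, was lower than in beta cells by 3.42 on the log2 scale (SD 0.80).

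Of 32 receptor genes, 21 passed the filter against beta cells, 2 were higher (GPR119 and PTGER3), 4 lower (GCGR, GLP1R, FFAR4 and CASR) and 15 neither, beside 2.15% and 0.979% of all genes. Their median was 0.52 against 0.16. With a pseudocount of 10 CPM the calls of GCGR (-1.89), GLP1R (-1.44) and PTGER3 (1.44) were lost. GCGR, the receptor for glucagon itself, was at 0.0569, 0.0149, 0, 0.300, 0.493 and 0 CPM in alpha cells of donors 1 to 6 and at 22.8, 46.9, 5.09, 23.6, 42.7 and 46.2 CPM in beta cells. GCGR was read in 13 alpha cells (2.97%) and 79 beta cells (48.2%). GLP1R, the receptor for GLP-1, was at 0.200 CPM or less in alpha cells, read in 4 of them (0.915%), and at 2.89 to 35.5 CPM in beta cells. Its difference of -2.09 ± 0.93 was inside the line only while donors 2, 4 and 6 were all kept, with -1.90, -1.92 and -1.99 when each was left out. GIPR, the receptor for the other incretin, differed by 0.03 ± 0.62, with 40.8 to 68.4 CPM in alpha cells and 29.2 to 128 CPM in beta cells, so the types overlapped.

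**Figure D5:**
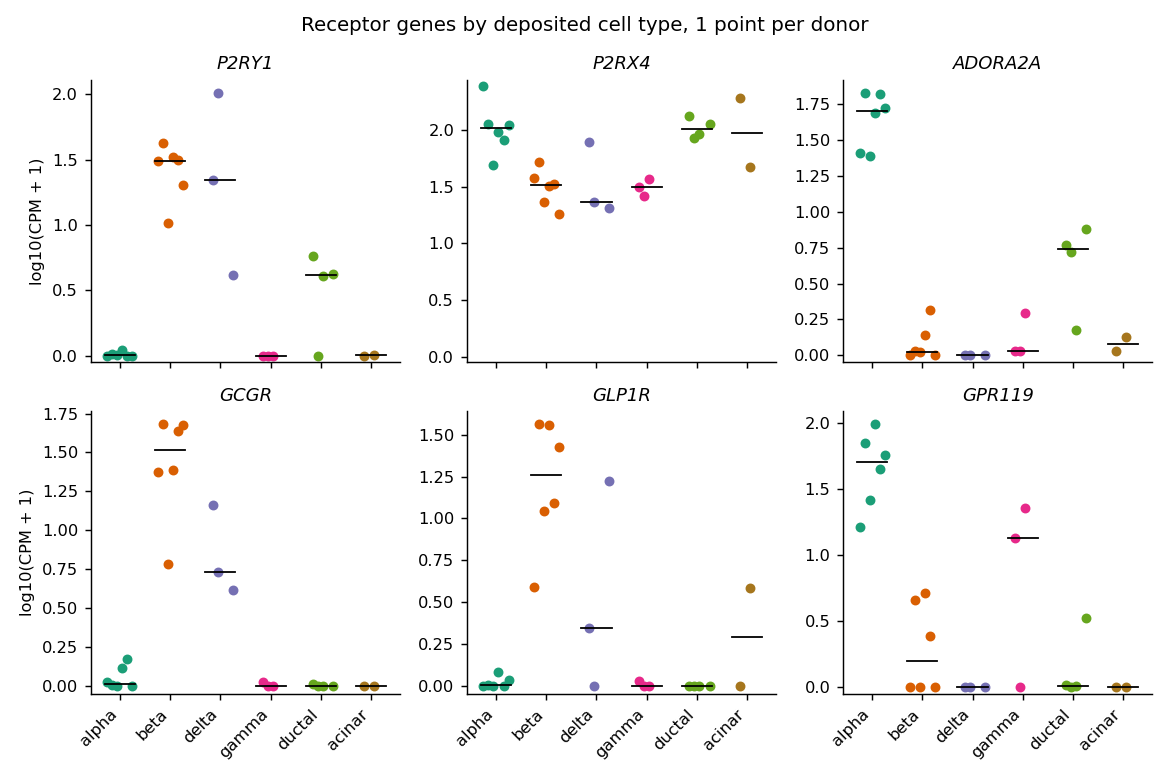
Levels of P2RY1, P2RX4, ADORA2A, GCGR, GLP1R and GPR119 as log10(CPM + 1) of summed counts, 1 point per donor and type, with the median over donors as a bar; each panel has its own axis. P2RY1, GCGR and GLP1R lie at or near 0 in alpha cells of all 6 donors, and ADORA2A in alpha cells lies above every other type shown.

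GPR119, a receptor for fatty acid amides, was at 15.2 to 95.6 CPM in alpha cells and 4.19 CPM or less in beta cells, a difference of 2.94 ± 0.58. PTGER3, a prostaglandin E receptor, differed by 2.12 ± 0.33, which was 1.90 within donors 1 to 3. The fatty acid receptor FFAR4 was at 0.555 CPM or less in alpha cells and 15.0 to 92.6 CPM in beta cells, and the calcium-sensing receptor CASR differed by -4.65 ± 0.82. FFAR1, the other long-chain fatty acid receptor, was read in both types and was lower in 6 of 6 donors by 1.59 on the log2 scale (SD 0.75), under the line. SSTR2, a somatostatin receptor, was at 117 to 225 CPM in alpha cells and higher in 6 of 6 donors by 1.32 ± 1.24; donor 6 was at 3.82 and the other 5 between 0.43 and 0.98, and the mean was 0.82 without donor 6.

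Of 28 ion channel genes, 15 passed the filter against beta cells, 1 was higher, 0 were lower and 14 were neither, beside 2.15% and 0.979% of all genes, with a median of 0.17 beside 0.16 over all genes. KCNJ3, a G-protein-gated potassium channel, was the 1 gene called, at 2.65 ± 0.45, or 1.88 with a pseudocount of 10 CPM, which ends the call. Its partner KCNJ6 was higher in 6 of 6 donors by 1.83 ± 0.69, a value that passed the line at 2.02 without donor 3. The KATP channel subunits ABCC8 and KCNJ11 differed by -1.10 ± 0.74 (lower in 6 of 6) and -0.32 ± 1.12. KCNK16, a background potassium channel, was at 153, 98.7 and 110 CPM in alpha cells of donors 2, 3 and 4 and at 0.135, 1.75 and 0 CPM in their gamma cells, a difference of 4.47 ± 0.50, but differed from beta cells by -0.22 (higher in 4 of 6 donors).

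Of 19 genes of Gq signalling and calcium stores, 12 passed the filter against beta cells, 1 was higher and 2 were lower, beside 2.15% and 0.979% of all genes, with a median of 0.40 against 0.16. The inositol trisphosphate receptors differed in opposite directions, with ITPR1 at 28.9 to 51.5 CPM in alpha cells and 9.24 CPM or less in beta cells, and ITPR3 at 1.45 to 29.5 CPM in alpha cells and 18.0 to 149 CPM in beta cells. Their differences were 2.67 ± 0.73 and -2.31 ± 0.62, the second of which was -1.96 with a pseudocount of 10 CPM. PRKCA, a protein kinase C, was lower by 2.04 on the log2 scale (SD 1.04), but by 1.80 without donor 1, 1.91 without donor 2 and 1.90 without donor 3; PRKCA differed by -1.19 within donors 4 to 6 and by -1.50 with a pseudocount of 10 CPM.

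Of 29 genes of glucose and amino-acid handling, 19 passed the filter, 5 were higher than in beta cells (among them LDHA, SLC7A2, SLC38A4 and ASS1) and 1 lower (PFKFB2), beside 2.15% and 0.979% of all genes. The list's median of 0.17 was close to the 0.16 of all genes. SLC7A2 and SLC38A4, carriers of amino acids, were at 187 to 466 CPM and 64.4 to 262 CPM in alpha cells, with differences of 2.42 ± 0.54 and 2.55 ± 0.68. ASS1, which makes argininosuccinate in arginine synthesis, differed by 2.84 ± 0.81. LDHA, the lactate dehydrogenase subunit known to be kept low in beta cells, was at 55.1 to 175 CPM in alpha cells and 0.398 to 21.6 CPM in beta cells, a difference of 3.42 ± 0.86. The levels did not overlap for any of these 4 genes. The amino-acid carrier SLC7A8 was higher than in gamma cells by 2.31 ± 0.88 (n = 3 donors), or 1.82 without donor 2.

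Of 26 immediate-early genes, which respond within minutes to stimulation or handling, 13 passed the filter against beta cells, 1 was higher (ZFP36, 2.69 ± 0.81) and 0 were lower, beside 2.15% and 0.979% of all genes, with a median of 0.82 against 0.16. FOS was at 404, 62.9, 30.5, 139, 151 and 228 CPM in alpha cells of donors 1 to 6 and higher than in beta cells in 6 of 6 donors by 1.70 ± 1.36, a value that passed the line at 2.03 without donor 4. Against gamma cells FOS was lower in 3 of 3 donors by 2.05 on the log2 scale, or by 1.68 without donor 3. NR4A1 was just under the line against beta cells, at 1.95. It was called at 2.07 with totals without hormone genes and at 3.05 with a pseudocount of 1 CPM. With a pseudocount of 10 CPM NR4A1 was at 1.48, and without donor 1 at 1.24. EGR1 differed from beta cells by -0.06 ± 1.26, with donor 6, which had 10 beta cells, at 2.34 and the other 5 donors between -1.05 and 0.26. No handling time is given per donor, and its part was not tested.

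Few alpha cells carried cell cycle transcripts. In 9 of 437 alpha cells (2.06%, exact 95% interval 0.946 to 3.87%) at least 4 of 8 cell cycle genes had 5 or more counts, against 0 of 164 beta cells (an interval up to 2.22%), 1 of 135 ductal cells and 5 of 111 acinar cells. Of these 9 alpha cells 5 came from donor 2, 3 from donor 5 and 1 from donor 6. These intervals cover counting of cells pooled over donors, and the difference between types was not tested. No phase was called.

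Per-cell measures outside the expression of single genes could be tested, with an exact two-sided sign-flip permutation test over donors of the difference of medians and Benjamini-Hochberg adjustment over 15 tests. The share of mitochondrial counts was lower in alpha than in beta cells in 6 of 6 donors, with donor medians of 6.27 to 15.2% in alpha and 11.96 to 28.9% in beta cells and a mean difference of -8.68 ± 3.78 percentage points (exact permutation p = 0.03125, adjusted 0.234). More genes were detected in alpha cells in 6 of 6 donors, by 0.23 ± 0.13 on the log2 scale, with the same p and adjusted p. With 6 donors 0.03125 is the smallest p this test can give, so neither passed the adjusted threshold. Thinned to 100000 counts, the difference in genes was 0.20 ± 0.11 over the 5 donors left, without 55 alpha and 22 beta cells that were shallower. Total counts differed from beta cells by 0.16 ± 0.90 (higher in 3 of 6 donors, exact p = 0.6875). Tests against the other types had 2 to 4 donors and could not give a p under 0.125.

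The spread between donors was of like size in both types. Over 2052 genes at 50 CPM or more in both types, the median SD over donors of log2(CPM + 5) was 0.564 in alpha and 0.699 in beta cells. This is a description, since beta cells were fewer in 5 of the 6 donors.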

How the data were processed

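Single cells of human islets were sequenced without molecular identifiers. Per the series design text, the submitters took another study's reads with sra-toolkit 2.10.5, aligned them and quantified each cell with RSEM 1.3.3 against GRCh38.p12. The deposited matrix held expected counts, which the authors gave as whole numbers; how these were rounded, the aligner and the gene annotation are not given in the sources used here. A second deposited matrix was a byte-for-byte copy and was not used. The matrix had 57980 genes, 41714 with a count. Of the rows with a count, 3177 equalled a different row in every cell and held 4.30% of alpha-cell counts. No coordinates or sequences are printed.

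Cell types and donors came from the deposited annotation. Doublets were not called. Counts were summed per donor and type (at least 10 cells), scaled to CPM by the total, and compared within donors as log2(CPM + 5) with Python 3.11.15, numpy 2.4.6 and pandas 2.3.3. The call needed a difference of 2 and 1 sign in all donors, at 10 CPM or more in either type. It was tested on simulated data. Per-cell medians were compared with an exact sign-flip permutation test, threshold 0.05 after Benjamini-Hochberg adjustment. TMM factors came from edgeR 4.0.16 in R 4.3.3. Reads carry no strand, so overlapping and antisense genes cannot be told apart, and near-identical copies may share reads. A count of 0 allows up to 3 counts.

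Genes were named by rule: the alpha markers, islet hormones, the 12 genes with the greatest margin over every other type, the 6 with the greatest margin below beta cells, purinergic receptors at 5 CPM or more in alpha cells, P2RY1, and members of 10 lists at 10 CPM or more in alpha or beta cells. Some genes that meet the rule are left unnamed, and some are not reported here. The ductal cells with GCG and the split of donors 1 to 3 and 4 to 6 were chosen after their values were seen. The members and lists were chosen with earlier results of these data known. No comparison of disease states was made, since all 1081 cells came from donors of 1 state. Spike-in shares were not computed, since 0 rows carried spike-in names.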

Additional observations from a re-analysis of the deposited data

Results flagged for a closer look

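In 83 sets of 4 or 6 donor values, 8 had 1 donor far from the others relative to the whole range, where chance alone flags about 1 in 20 sets. Alpha minus beta values are on the log2(CPM + 5) scale, and donor values of many genes share the same cells. NEUROD1 was at -0.77 in donor 1 and between 0.02 and 0.32 in the other 5 donors. GIPR was at -1.20 in donor 1, against 0.02 to 0.44. FFAR1 was at -3.04 in donor 1, against -1.56 to -0.94, and NR4A1, an immediate-early gene, was at 5.47 in donor 1, against 0.55 to 1.98. Donor 1 had 12 beta cells. PCSK1N was at 1.31 in donor 3, against -0.23 to 0.31. SSTR2 was at 3.82 in donor 6, against 0.43 to 0.98, and donor 6 had 10 beta cells, the fewest that were used. SLC38A4 was at 3.81 in donor 5, against 1.96 to 2.62. Total counts of alpha minus ductal cells, log2, were at 0.91 in 1 of 4 donors and between -0.39 and -0.36 in the others.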

How the results depend on the processing

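Counts of called genes moved with the pseudocount, with a stricter filter on low values and, where donors were lost, with the number of cells required. With a pseudocount of 1 CPM the counts of genes higher and lower were 449 and 159 against beta, 568 and 204 against delta, 236 and 255 against gamma, 790 and 990 against ductal and 1015 and 782 against acinar cells. With 10 CPM they were 104 and 50, 103 and 50, 48 and 50, 215 higher (ductal), and 330 and 316 (acinar). With a filter of 50 CPM, which tests fewer genes, they were 110 and 50, 117 and 50, 50 and 56, 221 higher (ductal), and 285 and 296 (acinar). Requiring 20 cells left 1 donor for delta (228 lower) and gamma (234 higher, 290 lower); only cells with 100000 counts or more gave 152 lower than delta. Leaving out 1 donor at a time, the count lower than delta ranged from 94 to 152 (without donor 6) and the count higher than gamma from 80 to 138 (without donor 4); the cause was not tested. Small differences changed sign in the same way: total counts, log2, ranged from -0.0887 (without donor 6) to 0.439 against beta, -0.213 (without donor 2) to 0.269 against gamma and -0.374 to 0.0612 against ductal cells (0.0526 and 0.0512 without donors 3 and 4), and genes detected from -0.00633 (without donor 2) to 0.0440 against gamma cells. Scaling shifted the median over all tested genes by -0.12 (beta), 0.16 (gamma), 0.15 (ductal) and -0.27 (acinar) with TMM factors, and by -0.11 (delta), 0.22 (ductal) and 0.24 (acinar) with totals without hormone genes; with TMM factors 53.0% of genes called against gamma cells were higher in place of 44.4%, and 45.3% against acinar cells in place of 54.6%. Of 69 called gene differences, none reversed under any alternative run, 11 lost the call with a pseudocount of 10 CPM, 11 with the 50 CPM filter, 4 with at least 5 cells, 3 with the mean of per-cell CPM, 2 with TMM factors and 5 each without donor 2 or donor 3; 12 of the 53 against beta cells lost it under at least 1 alternative. The comparison of disease states with its alternatives was not run. No paired analysis was possible by the labels' replicate numbers, because only the mouse libraries carry such numbers and these enter no comparison here. Pairs of cell types within a donor were used for differences in level and in per-cell medians, whereas shares of cells pool donors unless given by donor. Depth limits what can be said of genes near 0 CPM in donors 4 and 6, whose alpha cells held the fewest counts.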
